A study of Mus musculus with 4 samples.

Results

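The 10 genes described here carry out the presentation of peptides on MHC class I, the surface molecule by which a cell shows fragments of its own proteins to cytotoxic T cells. They were taken by name, as genes of this pathway, with earlier results of these data known, and 10 of the 15093 genes of the count table are members. H2-K1 and H2-D1 encode the classical heavy chains of the C57BL/6 mouse, H2-Q7 (one of the Qa-2 genes) and H2-T23 (Qa-1) encode non-classical heavy chains, and B2m encodes beta-2-microglobulin, the light chain that every class I heavy chain needs to fold and reach the surface. Tap1 and Tap2 encode the subunits of the transporter that carries peptides from the cytosol into the endoplasmic reticulum, and Tapbp encodes tapasin, which holds an empty class I molecule at that transporter while peptides are tried. Psmb8 and Psmb9 encode catalytic subunits of the immunoproteasome, which replace constitutive subunits and shift the cleavage of proteins towards peptides that class I molecules bind well. Lymphocytes carry class I at a high level at rest, and interferons raise the transcription of most genes of the pathway.

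The cells were peripheral blood mononuclear cells from female C57BL/6 wild-type mice aged 3.2 ± 0.3 months, all anaesthetized, with no genetic change in any group. The treated group, Maus3_2 and Maus6, received non-thermal plasma (NTP), a partly ionized gas, on the left ear for 10 min, and the untreated group, Maus2_2 and Maus4_2, received none. Blood was drawn 120 min after the exposure or, in the untreated mice, after the start of anaesthesia, and the study asked whether a local exposure of skin alters gene expression in circulating cells. A mouse is the replicate, with n = 2 in each group, so an exact permutation test of 1 value cannot go below p = 0.33, and all 4 animals are a single cohort at a single time. The table holds unique molecular identifier (UMI) counts, in which each count stands for 1 captured RNA molecule read near its 3' end. Totals were 7093148 and 6700732 UMIs in 1524 and 1705 cells of the treated mice, against 4653719 and 5245382 UMIs in 993 and 1572 cells of the untreated mice, and 4 barcodes occurred in more than 1 library. Median depth was 4480.5 and 3655 UMIs per cell in the treated mice, against 4465 and 3104.5 in the untreated mice, so Maus4_2 was the shallowest library.

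The authors' annotation divided the 5794 cells into 600 CD8+ T cells, 1517 CD4+ T cells, 474 plasmablasts, 3130 B cells and 73 NK cells, and their clustering into 12 clusters numbered 0 to 11. The names were checked against defining markers. Cd79a was seen in 98.9% of B cells, Cd3d in 91.1% and Cd4 in 44.0% of CD4+ T cells, and Cd8b1 in 93.2% of CD8+ T cells, while Cd3d was seen in 0.703% of B cells, a type that should lack it. Cells annotated as NK cells carried Cd3d in 98.6% and Cd8b1 in 74.0% of cells. Of the listed NK markers, Ncr1, Klrb1c and Gzma were each seen in 1.37% of them. Klre1 was seen in 16.4%, against at most 0.0659% of any other type. Most of these markers thus go against the name, while Klre1 goes with it in a minority of cells. Cells annotated as plasmablasts had Cd79a in 99.2% and Ms4a1 in 89.5% of cells. Of the listed markers of antibody-secreting cells, Jchain was seen in 0% of them, and Sdc1 and Prdm1 in 1.48% each. Xbp1 was seen in 7.59% and Mzb1 in 41.8%, against 6.90% and 42.5% of B cells. These markers were therefore rare or, for Xbp1 and Mzb1, about as frequent as in B cells. Both labels are used below as the names of these annotated groups only. Cells annotated as NK cells numbered 13 to 22 per mouse, under the minimum of 20 in some mice, and were described but not tested.

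Of the 10 genes, 9 lie on mouse chromosome 17, in the MHC, and B2m lies on chromosome 2 (122147686 to 122153083, plus strand; positions are from GENCODE vM21 on GRCm38, the assembly of mm10). In the order of the chromosome, Tapbp runs from 33915899 to 33929292 (plus strand) and H2-K1 from 33996017 to 34000347 (minus strand). Psmb9 (34181987 to 34187764, minus strand), Tap1 (34187553 to 34197225, plus strand), Psmb8 (34197721 to 34201454, plus strand) and Tap2 (34203527 to 34216321, plus strand) form a block of 34335 bases. Psmb9 and Tap1 are transcribed away from each other and overlap by 212 bases at their starts, far from the 3' ends that were counted. H2-D1 (35262730 to 35267499, plus strand), H2-Q7 (35439155 to 35443773, plus strand) and H2-T23 (36029773 to 36032855, minus strand) follow. Class I genes are near-copies of each other, so 3' ends were compared with the annotated transcripts of all other genes in words of 90 bases. The last 500 bases of the longest protein coding transcript of each gene were used. None of the 411 words was shared with another gene for 9 of the 10 members. H2-T23 shared 13.4% of its words with Rab33b, Hook2 and H2-T-ps, so some of its reads cannot be assigned to 1 gene. Its level is therefore the least certain in this respect, apart from the number of UMIs.

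The stretches of 180 bases upstream of the RefSeq start (GRCm38.p6) of the heavy chain genes and B2m are shown because the values that follow turn on these 5 genes. Capitals mark matches, on either strand, to an interferon-stimulated response element (GAAA, any 2 bases, GAAA), the interferon regulatory factor element TTTCACTT, the 11-base palindromic NF-kappa-B element (the first capitals of H2-K1) and the CCAAT box, which do not overlap each other here. The stretches lie at chr17:34000348-34000527 (- strand), chr17:35262914-35263093 (+ strand), chr17:35438975-35439154 (+ strand), chr17:36032702-36032881 (- strand) and chr2:122147507-122147686 (+ strand).
H2-K1: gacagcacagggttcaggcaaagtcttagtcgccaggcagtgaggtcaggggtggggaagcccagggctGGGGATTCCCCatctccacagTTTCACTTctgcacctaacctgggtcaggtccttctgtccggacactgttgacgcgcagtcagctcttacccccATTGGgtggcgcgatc
H2-D1: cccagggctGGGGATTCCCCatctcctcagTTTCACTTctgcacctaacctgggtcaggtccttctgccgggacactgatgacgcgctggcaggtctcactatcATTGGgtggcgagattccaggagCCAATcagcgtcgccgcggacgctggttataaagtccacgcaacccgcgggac
H2-Q7: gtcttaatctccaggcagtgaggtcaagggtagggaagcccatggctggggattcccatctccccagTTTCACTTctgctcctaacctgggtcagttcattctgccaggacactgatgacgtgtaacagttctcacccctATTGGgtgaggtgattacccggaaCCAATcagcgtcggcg
H2-T23: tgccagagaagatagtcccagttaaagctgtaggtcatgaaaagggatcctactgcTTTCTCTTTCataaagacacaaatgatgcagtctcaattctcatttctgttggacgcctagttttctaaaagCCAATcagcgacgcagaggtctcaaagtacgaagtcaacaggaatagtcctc
B2m: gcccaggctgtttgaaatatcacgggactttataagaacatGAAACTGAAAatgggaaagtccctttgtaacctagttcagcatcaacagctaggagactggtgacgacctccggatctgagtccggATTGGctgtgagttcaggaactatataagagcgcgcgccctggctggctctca

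With positions counted back from the RefSeq start, H2-K1 held the NF-kappa-B element at -111 and the TTTCACTT element at -90, and H2-D1 held them at -171 and -150, the same distance apart. Another RefSeq start of H2-K1, whose stretch is not shown, places the same elements at -125 and -104. H2-Q7 held TTTCACTT at -113 without an exact match to the NF-kappa-B letters, and H2-T23 and B2m each held the interferon-stimulated response element (at -124 and -139). Of 32851 RefSeq promoter windows of 300 bases, 0.0304% (10 windows) held the NF-kappa-B letters, 1.6% the TTTCACTT element, 3.44% the interferon-stimulated response element and 37.4% a CCAAT box. Of the 9 members with a window, 2 held the NF-kappa-B element, 3 the TTTCACTT element, 2 the interferon-stimulated response element and 8 a CCAAT box. The 10 windows with the NF-kappa-B letters include those of H2-K1 and H2-D1 themselves. The letters searched are those of H2-K1, so its match and the share of windows are no independent comparison. Psmb8 held the STAT element TTCNNNGAA, found in 8.30% of all windows. Tap2 has no window in the RefSeq table used. A match is a description of letters and says nothing of binding in these cells.

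Levels are given as CPM, the UMIs of a gene per 1000000 UMIs of the cells of a type in a mouse. One molecule gives 1 UMI whatever its length, yet capture differs between genes, so levels are compared across cell types for a gene and not ranked between genes. Together the 10 genes took 0.483% and 0.490% of the UMIs of CD8+ T cells in treated mice, against 0.430% and 0.471% in untreated mice, and 0.462% and 0.467% of those of CD4+ T cells in treated mice, against 0.438% and 0.432% in untreated mice. They took 0.401% and 0.428% of the UMIs of plasmablasts in treated mice, against 0.380% and 0.393% in untreated mice. In B cells the shares were 0.380% and 0.389% in treated mice, against 0.333% and 0.361% in untreated mice. The share was therefore higher in both T cell types than in B cells and plasmablasts in every mouse. Cell types and clusters were drawn by the authors from these same transcripts, so differences between them are descriptions with no p-value, and a gene is called apart when all 4 mice of one type lie beyond all 4 of the other.

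H2-Q7 differed most between cell types among the 10 genes. In CD8+ T cells it was at 539 and 578 CPM in treated mice, against 478 and 552 CPM in untreated mice. In CD4+ T cells it was at 401 and 445 CPM in treated mice, against 385 and 360 CPM in untreated mice. B cells had 197 and 190 CPM in treated mice, against 161 and 196 CPM in untreated mice, and plasmablasts had 187 and 241 CPM in treated mice, against 207 and 192 CPM in untreated mice. The order was thus CD8+ T cells, CD4+ T cells and then both B lineage groups, with no overlap between these 3 steps and with overlap between plasmablasts and B cells. Within a mouse, the log2 difference was 1.53 ± 0.07 between CD8+ T cells and B cells (SD over 4 mice), a 2.89-fold ratio of the means, 1.1 ± 0.18 between CD4+ T cells and B cells, and 0.43 ± 0.13 between CD8+ and CD4+ T cells. Cells annotated as NK cells, most of which carried T cell transcripts, had 553 and 397 CPM in treated mice, against 458 and 350 CPM in untreated mice.

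H2-K1 was higher in T cells than in B cells. It was at 995 and 945 CPM in treated mice, against 916 and 965 CPM in untreated mice in the CD8+ T cells, and at 1062 and 1018 CPM in treated mice, against 1079.7 and 962 CPM in untreated mice in the CD4+ T cells. B cells had 763 and 800 CPM in treated mice, against 682 and 683 CPM in untreated mice, and plasmablasts had 740 and 708 CPM in treated mice, against 665 and 674 CPM in untreated mice. All 8 T cell values exceeded all 8 values of the B lineage, by a within-mouse log2 difference of 0.39 ± 0.11 for CD8+ T cells and 0.50 ± 0.13 for CD4+ T cells against B cells. CD8+ and CD4+ T cells overlapped, at a difference of -0.11 ± 0.10.

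H2-D1, the other classical heavy chain, did not follow H2-K1. CD8+ T cells had 1023 and 996 CPM in treated mice, against 753 and 820 CPM in untreated mice, and CD4+ T cells had 1027 and 1048 CPM in treated mice, against 948 and 921 CPM in untreated mice. Plasmablasts had 1214 and 1256 CPM in treated mice, against 1083 and 1058 CPM in untreated mice, and B cells had 1046 and 1096 CPM in treated mice, against 894 and 944 CPM in untreated mice. From high to low the order was plasmablasts, B cells, CD4+ T cells and CD8+ T cells, and no neighbours in it were apart. It rests on scaling by library totals. The within-mouse log2 difference was -0.16 ± 0.09 between CD8+ T cells and B cells, -0.01 ± 0.07 between CD4+ T cells and B cells, and 0.21 ± 0.05 between plasmablasts and B cells. H2-T23, which encodes the Qa-1 heavy chain read by CD94/NKG2 receptors, averaged 157 ± 31.5 CPM in CD8+ T cells and 144 ± 23 CPM in CD4+ T cells, and 181 ± 12 CPM in B cells (SD, n = 4 each). It was lower in CD4+ T cells than in B cells in 4 of 4 mice, by a log2 difference of -0.34 ± 0.18, with overlapping ranges.

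**Figure D1:**
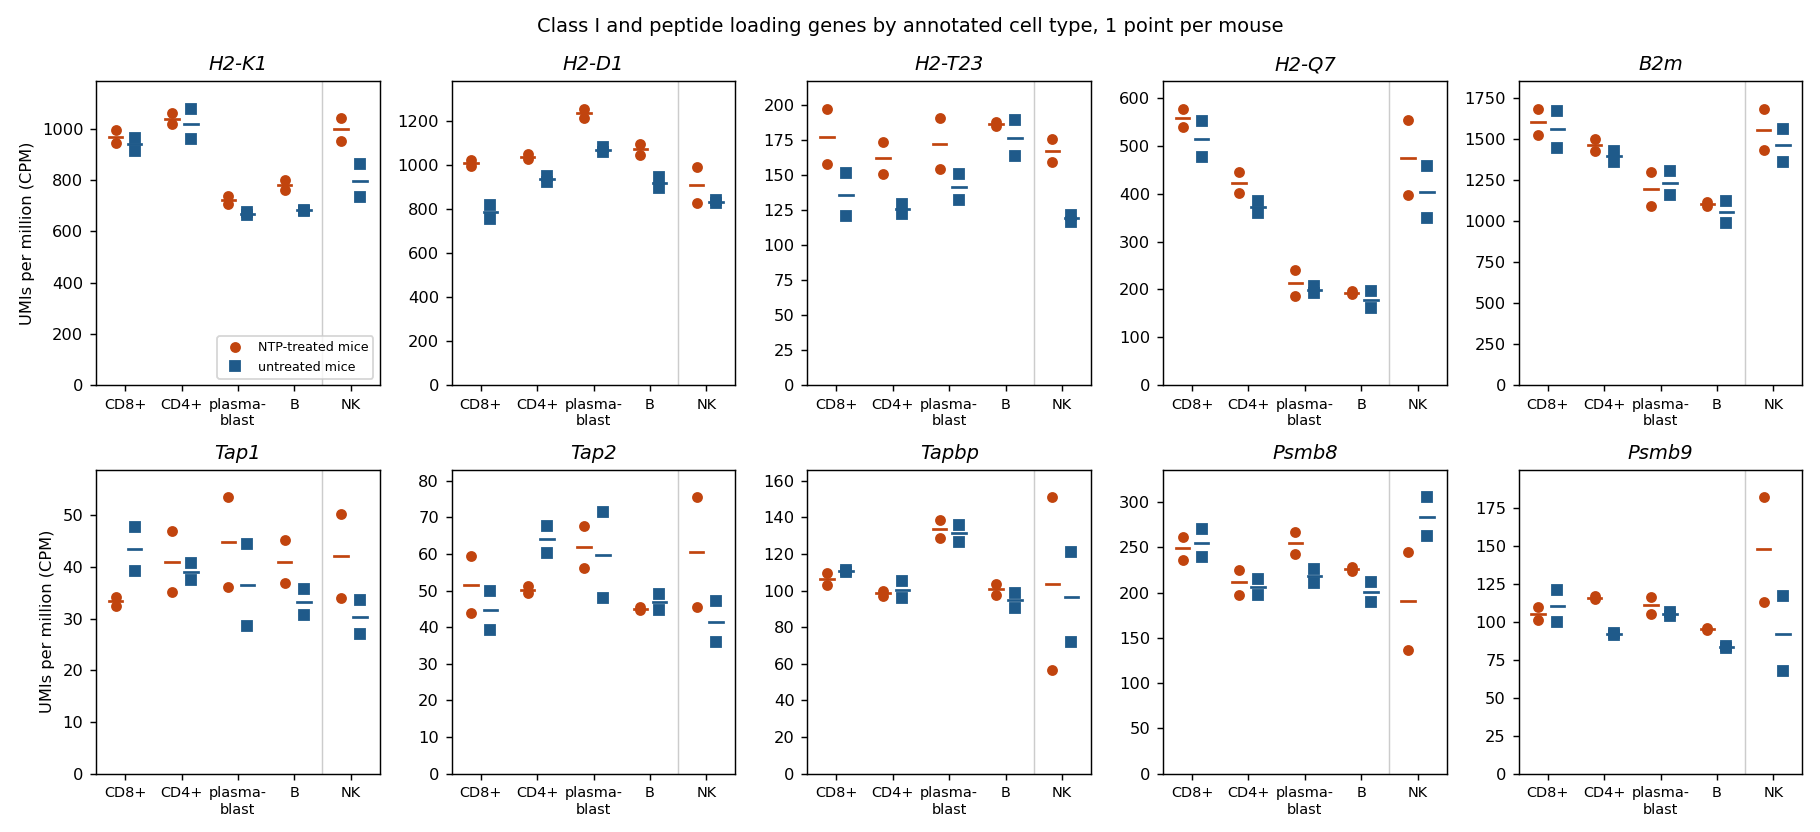
Level of each of the 10 genes (CPM, y axis from 0) in the 5 annotated cell types, with 1 point per mouse (circles NTP-treated, squares untreated) and a line at the mean of each group. H2-Q7 averages 537 CPM in CD8+ T cells, 398 CPM in CD4+ T cells and 186 CPM in B cells over the 4 mice, while H2-D1 overlaps between neighbouring types.

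B2m, shared by all these heavy chains, was at 1523 and 1685 CPM in treated mice, against 1448 and 1673 CPM in untreated mice in the CD8+ T cells. CD4+ T cells had 1428 and 1503 CPM in treated mice, against 1361 and 1429 CPM in untreated mice, plasmablasts had 1089 and 1299 CPM in treated mice, against 1158 and 1308 CPM in untreated mice, and B cells had 1091 and 1116 CPM in treated mice, against 989 and 1122 CPM in untreated mice. Every T cell value exceeded every B cell and plasmablast value. The within-mouse log2 difference from B cells was 0.55 ± 0.05 for CD8+ T cells and 0.41 ± 0.05 for CD4+ T cells.

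The ratio of 2 genes within the same cells does not depend on the scaling of the library. H2-K1 over H2-D1 averaged 1.08 in CD8+ T cells and 1.05 in CD4+ T cells, 0.606 in plasmablasts and 0.736 in B cells. The lowest T cell value, 0.949, lay above the highest B lineage value, 0.763. For H2-Q7 over H2-D1 the averages were 0.604 in CD8+ T cells, 0.403 in CD4+ T cells, 0.180 in plasmablasts and 0.187 in B cells. Set against the light chain, H2-D1 over B2m averaged 0.568 in CD8+ T cells, 0.689 in CD4+ T cells, 0.956 in plasmablasts and 0.922 in B cells. The mix of class I heavy chain transcripts therefore differed between the T and B lineages, and not their sum alone. H2-Q6, a neighbour of H2-Q7 that also encodes Qa-2, averaged 98.5 ± 17.4 CPM in CD8+ T cells, 69.4 ± 6.59 CPM in CD4+ T cells and 92.6 ± 10.2 CPM in B cells (SD, n = 4 each), without the excess of H2-Q7 in T cells. H2-Q6 over H2-Q7 averaged 0.183 in CD8+ T cells (range 0.161 to 0.206) and 0.175 in CD4+ T cells (0.159 to 0.194), against 0.501 in B cells (0.412 to 0.557). H2-Q6 shared 10.9% of its 3' words with other genes, among them Cd59b, Gm28625, Efr3a and H2-Q4, and H2-Q7 shared none.

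**Figure D2:**
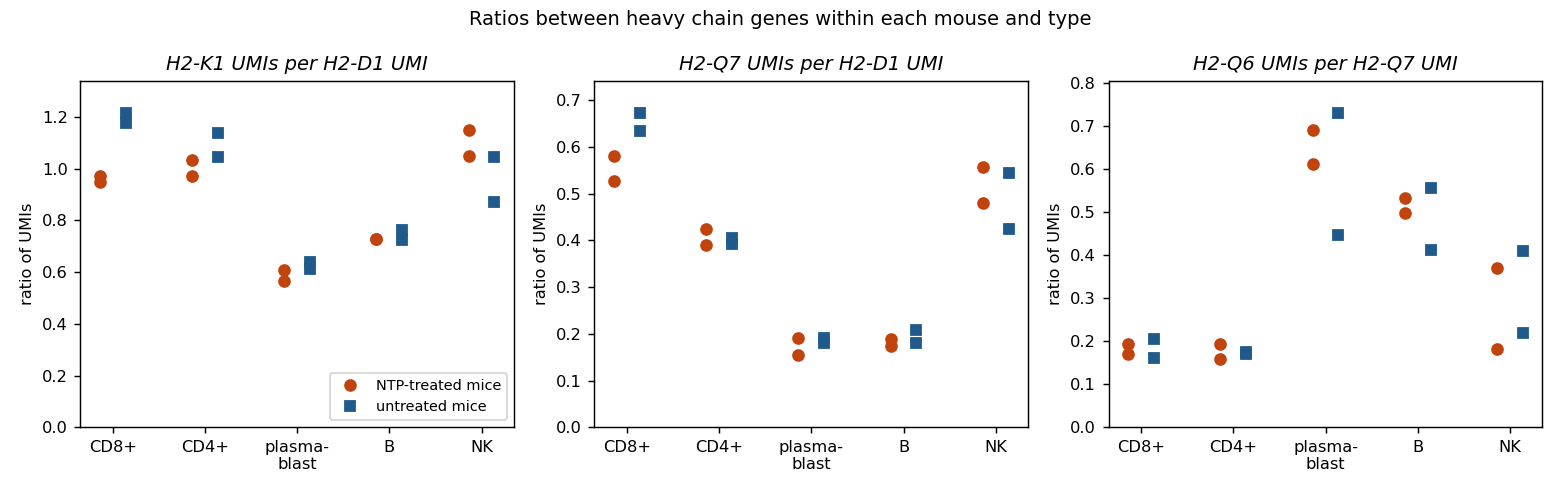
Ratios of UMI counts between class I genes (y axes, no unit) in the 5 annotated cell types, with 1 point per mouse (circles NTP-treated, squares untreated). H2-K1 over H2-D1 averages 1.05 in CD4+ T cells and 0.736 in B cells, and in CD8+ T cells the treated mice (0.973 and 0.949) lie below the untreated mice (1.22 and 1.18).

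Among the loading genes, the mean of Tap1 varied little between types. Tap1, a subunit of the peptide transporter, averaged 38.4 ± 6.85 CPM in CD8+ T cells, 40.1 ± 5.20 CPM in CD4+ T cells, 40.7 ± 10.7 CPM in plasmablasts and 37.1 ± 5.99 CPM in B cells, with all types overlapping. Tap2, its partner, averaged 57.1 ± 8.53 CPM in CD4+ T cells and 46 ± 2.03 CPM in B cells and was apart between them, at a within-mouse log2 difference of 0.30 ± 0.21. It averaged 60.8 ± 10.8 CPM in plasmablasts and 48.1 ± 8.70 CPM in CD8+ T cells. Plasmablasts were higher than B cells in 4 of 4 mice for Tap2, by 0.39 ± 0.22, with overlapping ranges. With the scaling across types given below, that difference was 0.18. Tapbp (tapasin) was highest by CPM in plasmablasts, at 129 and 138 CPM in treated mice, against 136 and 127 CPM in untreated mice, while B cells had 97.5 and 104 CPM in treated mice, against 90.6 and 98.7 CPM in untreated mice. Plasmablasts and B cells were apart, at 0.44 ± 0.10, and plasmablasts were also apart from CD8+ T cells, the next type down at 109 ± 3.90 CPM.

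Of the immunoproteasome subunits, Psmb8 averaged 252 ± 16.8 CPM in CD8+ T cells, 209 ± 13.6 CPM in CD4+ T cells, 237 ± 24.2 CPM in plasmablasts and 213 ± 17.3 CPM in B cells. CD8+ T cells were apart from CD4+ T cells, at a log2 difference of 0.27 ± 0.13, and from B cells, at 0.24 ± 0.19. Psmb9 averaged 108 ± 9.75 CPM in CD8+ T cells, 108 ± 5.78 CPM in plasmablasts, 104 ± 13.9 CPM in CD4+ T cells and 89.2 ± 7.08 CPM in B cells, and CD8+ T cells (0.27 ± 0.19) and plasmablasts (0.28 ± 0.09) were apart from B cells. Each immunosubunit can be set against the constitutive subunit whose place it takes. Psmb8 made up 81.8% of Psmb8 and Psmb5 UMIs together in CD8+ T cells, 78.2% in CD4+ T cells, 76.0% in plasmablasts and 80.7% in B cells. Psmb9 made up 62.0% of Psmb9 and Psmb6 UMIs in CD8+ T cells, 58.9% in CD4+ T cells, 54.8% in plasmablasts and 52.4% in B cells. The third immunosubunit, Psmb10, made up 61.5% of Psmb10 and Psmb7 UMIs in CD8+ T cells, 53.4% in CD4+ T cells, 62.3% in plasmablasts and 52.4% in B cells. By these means over 4 mice the immunosubunit gave the larger part of the UMIs of each pair in every tested type, by a wide margin for Psmb8. For Psmb9 the share was 48.0% in B cells of Maus4_2 and 47.9% in plasmablasts of Maus3_2. For Psmb10 it was 48.1% in CD4+ T cells of Maus6 and 49.8% in B cells of Maus2_2. In those sums the counterpart gave more UMIs. Capture differs between genes, so these are shares of UMIs and not of transcripts.

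Counted over the 10 genes, CD8+ T cells lay above B cells in 5 (H2-K1, H2-Q7, B2m, Psmb8 and Psmb9) and below them in 0, while of 9216 genes compared 12.6% lay above and 30.3% below. CD4+ T cells lay above B cells in 4 (H2-K1, H2-Q7, B2m and Tap2) and below in 0, against 17.9% and 26.2% of 9633 genes. CD8+ T cells lay above CD4+ T cells in 2 (H2-Q7 and Psmb8) and below in 0, against 4.47% and 11.6% of 8139 genes. Plasmablasts lay above B cells in 2 (Tapbp and Psmb9) and below in 0, against 11.7% and 7.12% of 8957 genes. The shares of members above B cells in both T cell types were larger than the share of all genes. Scaling by TMM across all types, which allows for a few very abundant transcripts, added 0.16 to the log2 difference of CD8+ T cells from B cells and 0.06 to that of CD4+ T cells, and moved that of plasmablasts by -0.21, to 0.24 for Tapbp and 0.070 for Psmb9. The higher Psmb9 of plasmablasts therefore rests on the scaling by library totals. So does the first place of plasmablasts for Tapbp, since under TMM the difference from B cells was 0.32 in CD8+ T cells. For H2-D1 the differences from B cells under TMM were 0.0079 in CD8+ T cells, 0.053 in CD4+ T cells and 0.0070 in plasmablasts, so its order of cell types was lost.

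Depth per cell differs between types, so the share of cells with a UMI was also computed for cells thinned to 2000 UMIs. H2-Q7 was seen in 92.3% of CD8+ T cells, 77.9% of CD4+ T cells and 43.0% of B cells, and in 65.2%, 53.2% and 29.6% of them at 2000 UMIs, so the order held at equal depth. B2m was seen in 100% of CD8+ T cells, 98.5% of CD4+ T cells and 93.3% of B cells, and in 95.3%, 92.4% and 85% at 2000 UMIs. Tap1 was seen in 19.3% of CD8+ T cells, 16.4% of CD4+ T cells and 12% of B cells, but in 7.2%, 7.7% and 7.2% at 2000 UMIs, so its spread between types was not seen at equal depth. The thinned shares left out 2 CD8+ T cells, 17 CD4+ T cells and 224 B cells below 2000 UMIs.

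Among the clusters of mainly CD4+ T cells, cluster 8 (144 cells, of which 137 were annotated as CD4+ T cells, 6 as B cells and 1 as a CD8+ T cell, 37 and 20 in treated mice, against 44 and 43 in untreated mice) had the highest mean of 7 of the 10 genes among the 9 clusters with at least 20 cells in every mouse. Its first leading gene was Cd74, followed by Ikzf2. The leading genes included Ikzf2, Ctla4, Il2ra and Foxp3, genes of regulatory T cells. Class II genes (Cd74, H2-Aa, H2-Ab1) and Lyz2, Apoe and Tyrobp of myeloid cells were also among them. Cd74 was seen in 12 of the 144 cells, against 95 for Ikzf2, 107 for Ctla4, 53 for Il2ra and 48 for Foxp3. H2-K1 was at 1449.8 and 1304 CPM in treated mice, against 1309 and 1140.1 CPM in untreated mice in cluster 8. In cluster 3, the largest CD4+ cluster (784 cells), it was at 1117 and 1013 CPM in treated mice, against 1076 and 927 CPM in untreated mice. Tap1 averaged 66.4 ± 16.7 CPM in cluster 8 and 38.9 ± 4.41 CPM in cluster 3, and Psmb8 averaged 322 ± 41 CPM in cluster 8 and 215 ± 12.6 CPM in cluster 3 (SD, n = 4 each). Cluster 8 lay above cluster 3 in 4 of the 10 genes (H2-K1, Tap1, Psmb8 and Psmb9) and below in 0, against 12.7% and 4.06% of 5415 genes compared. Against cluster 5 (444 cells) it lay above in 8 and below in 0, against 6.37% and 9.35% of 5134 genes, and the members that overlapped were Tap2 and Tapbp. Of the 144 cells, 9 carried a UMI of Lyz2, Apoe or Tyrobp, and 135 carried a Cd3 UMI and none of these. Cells were not left out for a Cd74 UMI. In those 135 cells, a set chosen after seeing the data, H2-K1 averaged 1331 ± 112 CPM and Tap1 62.3 ± 14.3 CPM, both still above every mouse of cluster 3, while Psmb8 and Psmb9 overlapped it. In the whole of cluster 8, Tap1 rested on 12 and 8 UMIs in treated mice, against 11 and 11 UMIs in untreated mice. Its place above cluster 3 is therefore less certain than that of H2-K1. The Lyz2, Apoe and Tyrobp markers moved with the cluster, and their part in Psmb8 and Psmb9 was not tested further.

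Among the clusters of mainly B cells, cluster 1 (1001 cells) lay above cluster 2 (968 cells) in 6 of the 10 genes (H2-K1, H2-D1, H2-T23, B2m, Psmb8 and Psmb9) and below in 0, against 7.74% and 39.1% of 7507 genes compared. H2-K1 was at 861 and 906 CPM in treated mice, against 859 and 771 CPM in untreated mice in cluster 1, and at 676 and 700 CPM in treated mice, against 589 and 614 CPM in untreated mice in cluster 2. Psmb8 averaged 270 ± 25.1 CPM in cluster 1 and 160 ± 15.2 CPM in cluster 2 (SD, n = 4 each). Cluster 2 was lowest of the 9 clusters for 6 of the 10 genes. Ribosomal protein genes took 30.8% of the UMIs in cluster 1 and 19.3% in cluster 2, and cluster 1 was led by ribosomal genes and cluster 2 by long genes such as Alcam and Lpp, so a difference in the make-up of the RNA moved with the difference in class I, and its part was not tested. Across the 9 clusters, H2-Q7 spanned the widest range with no overlap, at 538 ± 43.2 CPM in cluster 4, the CD8+ T cells, and 152 ± 22.6 CPM in cluster 9, a plasmablast cluster, a 3.55-fold span. H2-K1 spanned 2.02-fold and Psmb8 2.01-fold between clusters 8 and 2.

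**Figure D3:**
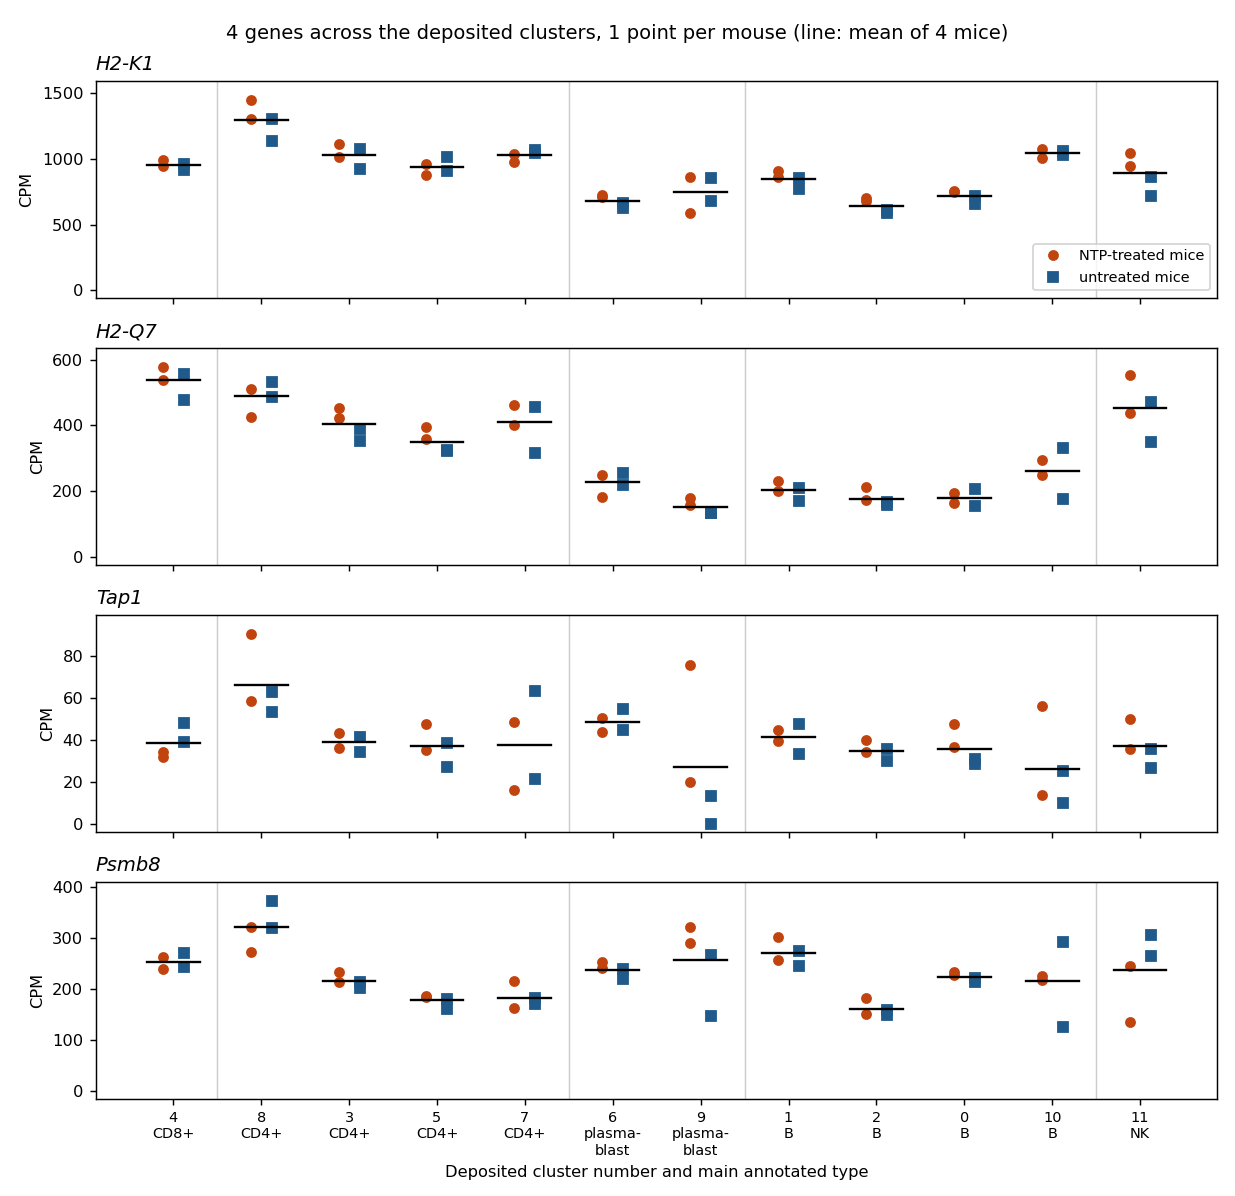
Level (CPM, y axes) of H2-K1, H2-Q7, Tap1 and Psmb8 in the 12 deposited clusters, ordered by main annotated type on the x axis, with 1 point per mouse (circles NTP-treated, squares untreated) and a line at the mean of 4 mice. Cluster 8 holds the highest mean of H2-K1 (1301 CPM), Tap1 (66.4 CPM) and Psmb8 (322 CPM), and cluster 4 the highest of H2-Q7 (538 CPM).

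Across the 12 clusters, the levels of members were set against those of other genes by the correlation of log2(CPM + 10) among 2945 genes. Genes outside the list needed a mean of at least 50 CPM over the clusters. The 3 nearest genes outside the list were Rwdd1 (r = 0.97), Mdh2 (0.94) and Atp5h (0.92) for H2-K1, and Rnaset2b (0.97), Cops9 (0.96) and Cmc1 (0.95) for H2-Q7. For Tap1 they were Ndufb3 (0.86), Psma4 (0.85) and Supt4a (0.85), and for Psmb8 they were Gpx4 (0.91), Eif3k (0.84) and Sem1 (0.83). Among members, Tap2 was the first of all genes for Tap1 (r = 0.87), and H2-Q7 was the sixth of all genes for B2m (0.93). Those pairs were among the closest, and other members lay far apart. Among 2944 other genes, H2-D1 ranked 752 for H2-K1 (r = 0.30) and Tapbp ranked 2060 (-0.46). For H2-D1, H2-Q7 ranked 1851 (-0.12). The 10 genes thus did not vary together as a set across clusters. The 12 points share the same 4 libraries and differ in depth, so these are descriptions.

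The treatment comparison asked whether NTP on the ear shifted these genes in blood cells 120 min later. None of the 10 genes passed the adjusted threshold of 0.05 in any of the 4 tested types (CD8+ T cells, CD4+ T cells, plasmablasts and B cells) by edgeR's quasi-likelihood test with Benjamini-Hochberg adjustment over all genes, nor by DESeq2 or limma-voom. All 10 genes passed the filter on low counts in each type. Over all genes tested, edgeR called 2 of 6798 genes (0.0294%) in CD8+ T cells and 1 of 5372 genes (0.0186%) in plasmablasts. It called none in CD4+ T cells (0.0%, 8680 genes tested) or in B cells (0.0%, 9903 genes tested). At an unadjusted p under 0.05 there were 2 members in CD8+ T cells, where 8.44% of all genes were, 4 in CD4+ T cells (4.78%), 0 in plasmablasts (6.76%) and 2 in B cells (4.65%). DESeq2 gave 1, 1, 0 and 2 members at that level in the same order of types, and limma-voom gave 2, 4, 0 and 2. Over all genes, DESeq2 had far fewer at that level, at 106 of 6798, 48 of 8680, 44 of 5372 and 63 of 9903. With limma-voom there were 572, 427, 356 and 445 of the same numbers of genes.

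The heavy chain H2-D1 had the smallest unadjusted p of the members in B cells, CD8+ T cells and plasmablasts, and both treated mice were above both untreated mice in all 4 types. In CD8+ T cells it was at 1023 and 996 CPM in treated mice, against 753 and 820 CPM in untreated mice, a log2 fold change of 0.45 (SE 0.11), with an unadjusted p of 0.000278 and an edgeR adjusted p of 0.263. CD4+ T cells had 1027 and 1048 CPM in treated mice, against 948 and 921 CPM in untreated mice (log2 fold change 0.20 (SE 0.08), edgeR adjusted p 0.904), and plasmablasts had 1214 and 1256 CPM in treated mice, against 1083 and 1058 CPM in untreated mice (log2 fold change 0.24 (SE 0.14), edgeR adjusted p 0.786). In B cells it was at 1046 and 1096 CPM in treated mice, against 894 and 944 CPM in untreated mice, a log2 fold change of 0.26 (SE 0.10) and an edgeR adjusted p of 0.934. The sums of the 4 types come from the same 4 animals, so these are not 4 independent sightings. In CD8+ T cells the ratio of H2-K1 to H2-D1 was 0.973 and 0.949 in treated mice, against 1.22 and 1.18 in untreated mice. In B cells it was 0.729 and 0.730 in treated mice, against 0.763 and 0.724 in untreated mice, with overlap. H2-D1 was singled out by its p in these same values, so the CD8+ ratio is a description. Ribosomal protein genes took 35.9% and 37.2% of the CD8+ UMIs in treated mice, against 34.0% and 34.1% in untreated mice, and 31.5% and 32.9% of the CD4+ UMIs in treated mice, against 30.5% and 30.9% in untreated mice. That share moved with the treatment in both T cell types, and its part in the class I values was not tested.

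H2-T23 was at 197 and 158 CPM in treated mice, against 121 and 151 CPM in untreated mice in the CD8+ T cells, a log2 fold change of 0.45 (SE 0.17) and an edgeR adjusted p of 0.54. In CD4+ T cells it was at 173 and 151 CPM in treated mice, against 122 and 130 CPM in untreated mice, a log2 fold change of 0.42 (SE 0.12) with an unadjusted p of 0.0047 and an edgeR adjusted p of 0.904. Both treated mice exceeded both untreated mice in each of these types, whereas in B cells the groups overlapped at 188 and 185 CPM in treated mice, against 163 and 189 CPM in untreated mice. Psmb9 in CD4+ T cells was at 115 and 117 CPM in treated mice, against 92.6 and 90.9 CPM in untreated mice, a log2 fold change of 0.39 (SE 0.12) with an edgeR adjusted p of 0.904. H2-Q7 in CD4+ T cells had a log2 fold change of 0.23 (SE 0.10), and H2-K1 in B cells one of 0.23 (SE 0.10), with edgeR adjusted p of 0.904 and 0.934. None of these differences passed the adjusted test.

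B2m, the light chain, gave log2 fold changes of 0.13 (SE 0.11) in CD8+ T cells, 0.12 (SE 0.08) in CD4+ T cells, -0.01 (SE 0.14) in plasmablasts and 0.10 (SE 0.10) in B cells, with overlapping groups in every type. Tap1 was at 34.3 and 32.4 CPM in treated mice, against 39.3 and 47.7 CPM in untreated mice in the CD8+ T cells, with both treated mice lower, and at 45.1 and 36.8 CPM in treated mice, against 30.7 and 35.7 CPM in untreated mice in the B cells, with both treated mice higher. Tap2 gave -0.30 (SE 0.15) in CD4+ T cells, at 51.2 and 49.3 CPM in treated mice, against 60.2 and 67.7 CPM in untreated mice, with both treated mice lower. Tapbp gave log2 fold changes between 0.02 and 0.12 in the 4 types. Psmb8 gave 0.26 (SE 0.18) in plasmablasts and 0.20 (SE 0.11) in B cells, with both treated mice higher in each, and 0.06 (SE 0.14) in CD8+ T cells and 0.09 (SE 0.11) in CD4+ T cells, with overlap. Fold changes are on TMM-scaled counts, while the CPM are not scaled, which is why Tapbp in CD8+ T cells has both treated mice just lower in CPM (103 and 110 CPM (treated), against 110 and 111 CPM (untreated)) and a fold change of 0.04 (SE 0.18).

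Over the list, 9 of the 10 genes had a positive log2 fold change in each of the 4 types, the exceptions being Tap1 in CD8+ T cells, Tap2 in CD4+ T cells and B cells, and B2m in plasmablasts. The median log2 fold change was 0.13 in CD8+ T cells, 0.11 in CD4+ T cells, 0.14 in plasmablasts and 0.18 in B cells, while the median over all genes tested lay between 0.00 and 0.01. It depended on the setting: with no scaling factor it was 0.041 in CD8+ T cells and 0.064 in CD4+ T cells, with equal cells per mouse 0.26 in plasmablasts, and with equal weight of clusters 0.12 in B cells. Without Maus3_2 it was 0.21 in CD4+ T cells, and without Maus2_2 it was 0.089 in B cells. Both treated mice lay above both untreated mice in 2 members in CD8+ T cells, where 12.6% of all genes did, in 4 in CD4+ T cells (13.3%), in 4 in plasmablasts (16.6%) and in 5 in B cells (14.5%). They lay below in 2 members in CD8+ T cells (26.1% of all genes), in 1 in CD4+ T cells (21.9%), in 0 in plasmablasts (20.1%) and in 0 in B cells (20.2%). These counts come from the same 4 mice and from genes with shared regulators, so members are not independent observations, and no test was made of the list.

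**Figure D4:**
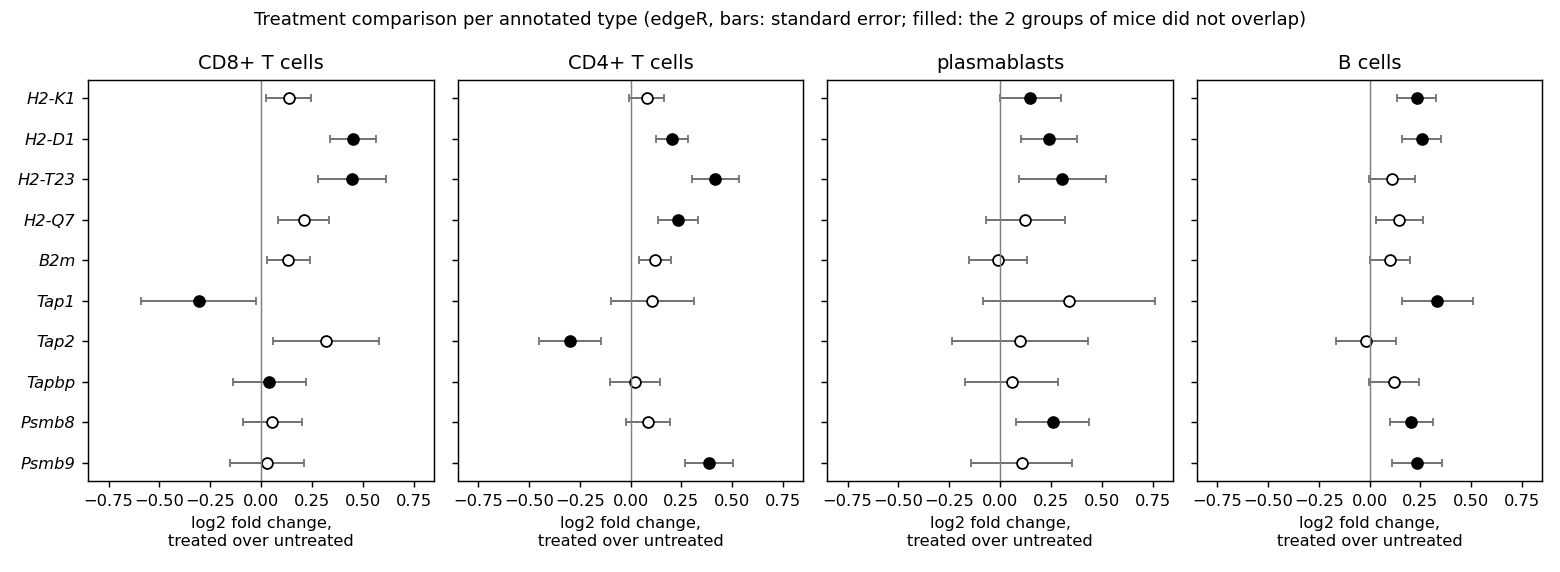
Log2 fold change of each member, treated over untreated (x axis, TMM-scaled edgeR fit, bars 1 SE, n = 2 mice per group), in the 4 tested cell types, with filled points where the groups of mice did not overlap in CPM. Most points lie to the right of 0, between -0.31 (Tap1 in CD8+ T cells) and 0.45 (H2-D1 and H2-T23 in CD8+ T cells), and no member passed the adjusted threshold of 0.05.

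In 87 tests of members within 9 clusters, 0 passed the adjusted threshold, against 0.0117% of 51271 gene tests, and 7 had an unadjusted p under 0.05, against 4.96% of all tests. Those 7 were H2-D1 in clusters 2, 3 and 4, H2-T23 in clusters 3 and 4, and H2-Q7 and Psmb9 in cluster 3, and the smallest edgeR adjusted p was 0.425 (H2-D1 in cluster 4). Whether the treatment effect differed between CD4+ T cells and B cells was tested as an interaction with the mouse as a block, and 0 of the 10 genes passed, against 0.00986% of 10143 genes. The differences of effect, CD4+ T cells minus B cells, lay between -0.28 (Tap2) and 0.30 (H2-T23). For CD8+ T cells against B cells, a comparison added after seeing the data, 0 members passed, against 0.0105% of 9557 genes.

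The markers of other cells varied between mice in some of the tested sums. The summed level of 4 monocyte markers in B cells was 12.7 and 18.1 CPM in treated mice, against 4.95 and 75.5 CPM in untreated mice, and the groups overlapped. The 3 hemoglobin genes in plasmablasts summed to 104 and 22.1 CPM in treated mice, against 3710 CPM in Maus2_2 and 6.85 CPM in Maus4_2, and without Maus2_2 the log2 fold change of H2-D1 there was 0.28. A set of 13 other interferon-stimulated genes summed to 652 and 553 CPM in treated B cells, against 537 and 630 CPM in untreated B cells. In CD4+ T cells they summed to 1008 and 722 CPM in treated mice, against 903 and 834 CPM in untreated mice, and the groups overlapped in both types. Most of that sum was a single gene, Ifi27l2a, which averaged 586 ± 103 CPM in CD4+ T cells and 468 ± 35.5 CPM in B cells (SD, n = 4 each), so the sum says little of the other 12.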

How the data were processed

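The authors isolated mononuclear cells from blood on a density gradient and made 10x Genomics 3' v3.1 libraries. Cell Ranger 7.1.0, Seurat 4.3.0 and the mm10 build are listed in the submitters' processing notes. The paper's methods add SoupX for ambient RNA, limits on genes and mitochondrial reads per cell, DoubletFinder, and clustering on integrated data. The deposited counts are whole UMI counts of 15093 genes in 5794 cells, in which 66 genes had no UMI, and the authors deposited the percent of mitochondrial counts, the cluster and the cell type of each cell beside them. No source used here says whether SoupX is part of the deposited counts. No doublet caller was run again, and 0 sample columns were left unused. The miRNA samples were not analysed here.

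Counts were summed per mouse and annotated type, or per mouse and cluster with at least 20 cells in every mouse. edgeR 4.0.16 (R 4.3.3) fitted treatment by its quasi-likelihood test with TMM scaling and its own filter on low counts over all genes, with Benjamini-Hochberg adjustment and a threshold of 0.05. Genes were tested with n = 2 mice per group. Cell types were compared within mice for genes with at least 10 UMIs in 4 or more of the 8 sums, with no test. Alternatives were RLE scaling, no scaling, DESeq2 1.42.0, limma-voom (limma 3.58.1), no filter, equal cells per mouse, equal weight of clusters and each mouse left out. The script was tested on simulated data. Sequences came from RefSeq promoter windows, found for 9 of the 10 members. The members, the lists of pathway genes and the markers were chosen with earlier results of these data known. For treatment values, the text names the genes of each list past the threshold or otherwise up to 2 per type with the smallest p. Listed genes given by their levels across cell types were not chosen by that rule. The files hold 12 clusters, where 11 had been planned for, and likeness was computed over 12. The alternatives for single clusters, the comparison of CD8+ T cells with B cells and the Cd3 cells of cluster 8 were chosen after seeing the data. The mice of the groups share no replicate number.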

Additional observations from a re-analysis of the deposited data

Results flagged for a closer look

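Tap1 is listed because its treatment effect went opposite ways in a pair of cell types. In CD8+ T cells it was at 34.3 and 32.4 CPM in treated mice, against 39.3 and 47.7 CPM in untreated mice, so both treated mice were lower. In B cells it was at 45.1 and 36.8 CPM in treated mice, against 30.7 and 35.7 CPM in untreated mice, so both were higher. The difference of the log2 effects, CD8+ T cells minus B cells, was -0.63 (SE 0.35) in edgeR's interaction test, with an unadjusted p of 0.0707 and an adjusted p of 1, so it did not pass the threshold. Without the mouse as a block the unadjusted p was 0.0510. In CD8+ T cells Tap1 rested on 25 and 36 UMIs in treated mice, against 26 and 42 UMIs in untreated mice.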

How the results depend on the processing

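None of the 10 genes passed the adjusted threshold in any cell type under the alternatives run. Nor did any in single clusters under RLE scaling, DESeq2, no filter or with 1 mouse left out, or in the interaction of CD4+ T cells with B cells under RLE scaling, no filter or no replicate block. Over cell types and alternatives, 413 of 440 single fold changes kept their direction. No paired analysis was possible because the treated and untreated mice share no replicate number. The interactions paired the cell types of a mouse, and the fit with no replicate block gave 0 members too. For H2-D1 the lowest and highest log2 fold changes with 1 mouse left out were 0.41 and 0.50 in CD8+ T cells, 0.17 and 0.24 in CD4+ T cells, 0.20 and 0.30 in plasmablasts and 0.20 and 0.31 in B cells, and its adjusted p in CD8+ T cells ranged from 0.0878 to 0.9998 over all alternatives.

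The median log2 fold change of the members moved by more than the spread between mice in these settings. With no scaling it was 0.041 in CD8+ T cells, 0.064 in CD4+ T cells and 0.10 in plasmablasts. With limma-voom it was 0.10 in CD4+ T cells, and with no filter 0.17 in plasmablasts. With equal cells per mouse it was 0.13 in CD4+ T cells and 0.26 in plasmablasts, and with equal weight of clusters 0.10 in CD4+ T cells and 0.12 in B cells. With 1 mouse left out it lay between 0.091 and 0.19 in CD8+ T cells, 0.11 and 0.21 in CD4+ T cells, 0.13 and 0.18 in plasmablasts, and 0.089 and 0.23 in B cells.

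The sign turned only for members with small fold changes. With no scaling, Tapbp was at -0.055, Psmb8 at -0.037 and Psmb9 at -0.065 in CD8+ T cells, and Tapbp at -0.029 in CD4+ T cells. With equal cells per mouse, Psmb9 was at -0.076 in CD8+ T cells, Tapbp at -0.041 in CD4+ T cells, and B2m at 0.041 and Psmb9 at -0.12 in plasmablasts. With equal weight of clusters, Tapbp was at -0.054 and Psmb8 at -0.020 in CD4+ T cells, and Tap2 at -0.0059 and Tapbp at -0.037 in plasmablasts, and with no filter B2m was at 0.023 there. With 1 mouse left out, the ranges in CD8+ T cells were -0.13 to 0.18 for Psmb9, -0.039 to 0.096 for Tapbp and -0.048 to 0.16 for Psmb8. In CD4+ T cells they were -0.13 to 0.34 for Tap1 and -0.042 to 0.092 for Tapbp. In plasmablasts they were -0.15 to 0.14 for B2m, -0.18 to 0.43 for Tap2, -0.069 to 0.34 for H2-Q7 and -0.0057 to 0.14 for Tapbp, and in B cells -0.082 to 0.038 for Tap2. The causes were not tested. Counts limit the precision of Tap1, which in CD8+ T cells rested on 25 to 42 UMIs per mouse.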

Other observations

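Of the 12 listed regulators of the pathway, some had unequal levels between cell types and others were nearly level. Nlrc5, which encodes the transactivator of MHC class I genes, averaged 98.7 ± 15.1 CPM in CD8+ T cells, 90.5 ± 13.1 CPM in CD4+ T cells, 48.3 ± 14.2 CPM in plasmablasts and 37.1 ± 3 CPM in B cells (SD, n = 4 each). Irf1, an activator of class I and of the immunoproteasome, averaged 86.8 ± 14 CPM in CD8+ T cells, 86.3 ± 11.8 CPM in CD4+ T cells, 68.3 ± 8.20 CPM in plasmablasts and 46.7 ± 4.18 CPM in B cells. Irf8, a factor of B and myeloid cells, averaged 1.59 ± 1.19 CPM in CD8+ T cells, 1.48 ± 0.444 CPM in CD4+ T cells, 254 ± 20.9 CPM in plasmablasts and 176 ± 6.96 CPM in B cells. Irf2 averaged 119 ± 16.2 CPM in CD8+ T cells and 282 ± 12.5 CPM in B cells. Creb1 averaged 108 ± 22.2 CPM in CD8+ T cells, 119 ± 9.82 CPM in CD4+ T cells, 130 ± 29.4 CPM in plasmablasts and 103 ± 11.3 CPM in B cells, and Rfxap averaged 26.6 ± 8.07 CPM, 32.7 ± 4.01 CPM, 29.8 ± 6.70 CPM and 27 ± 3.39 CPM in the same order. These genes were chosen after their values were seen. Among other heavy chains, H2-T22 averaged 101 ± 8.40 CPM in CD8+ T cells and 65.5 ± 6.13 CPM in B cells, while H2-M3, which presents formylated peptides, averaged 34 ± 7.56 CPM in CD8+ T cells and 65.9 ± 5.68 CPM in B cells. Psme2, a subunit of the proteasome activator PA28, averaged 148 ± 15.2 CPM in CD8+ T cells and 66.3 ± 7.02 CPM in B cells. Calr (calreticulin), which assists heavy chain folding, averaged 272 ± 8.83 CPM in plasmablasts and 185 ± 26.6 CPM in B cells.

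None of the genes on the lists of other heavy chains, other loading and trimming genes, proteasome counterparts, class I regulators and other interferon-stimulated genes passed the adjusted threshold for treatment in any type by edgeR. Among the other loading and trimming genes, CD8+ T cells had a positive log2 fold change in 5 of 10 tested and CD4+ T cells in 9 of 10. Plasmablasts had one in 5 of 9 and B cells in 6 of 10. At an unadjusted p under 0.05 there were 1 in CD8+ T cells and 2 in plasmablasts, against 8.44% and 6.76% of all genes. Among the class I regulators, CD8+ T cells had a positive log2 fold change in 3 of 9 tested and CD4+ T cells in 4 of 10. Plasmablasts had one in 4 of 9 and B cells in 6 of 12. At an unadjusted p under 0.05 there was 1 in CD8+ T cells (8.44% of all genes), 1 in CD4+ T cells (4.78%) and 1 in plasmablasts (6.76%). B cells had none (4.65%). Of the 17 other heavy chains listed, 8 were in the table, and CD8+ T cells had a positive log2 fold change in 3 of 4 tested, CD4+ T cells in 5 of 6, plasmablasts in 2 of 4 and B cells in 6 of 8. At an unadjusted p under 0.05 there were 0 in CD8+ T cells, 1 in CD4+ T cells, 0 in plasmablasts and 2 in B cells, against 8.44%, 4.78%, 6.76% and 4.65% of all genes. H2-Q4 in B cells was at 56.1 and 49.7 CPM in treated mice, against 43.6 and 39.4 CPM in untreated mice (log2 fold change 0.39, SE 0.15, edgeR adjusted p 0.934). H2-T22 in CD4+ T cells was at 116 and 104 CPM in treated mice, against 92.6 and 92.2 CPM in untreated mice (log2 fold change 0.30, SE 0.12, edgeR adjusted p 0.904). Nlrc5 in CD4+ T cells was at 81.5 and 77.4 CPM in treated mice, against 105 and 98 CPM in untreated mice (log2 fold change -0.30, SE 0.12, edgeR adjusted p 0.904), with both treated mice lower, while members such as H2-D1 were higher in the same mice. Irf7, a mediator of type I interferon responses, was at 23.3 and 18 CPM in treated mice, against 13.6 and 7.95 CPM in untreated mice (log2 fold change 1.04, SE 0.45, edgeR adjusted p 0.563) in CD8+ T cells and at 18.5 and 16.6 CPM in treated mice, against 13.6 and 9.67 CPM in untreated mice (log2 fold change 0.64, SE 0.30, edgeR adjusted p 0.904) in CD4+ T cells, with both treated mice higher in each. Ifit1, an interferon-stimulated gene, was at 10.4 and 6.31 CPM in treated mice, against 23.3 and 12.9 CPM in untreated mice (log2 fold change -1.03, SE 0.39, edgeR adjusted p 0.904) in CD4+ T cells, with both treated mice lower. Psme1, the partner of Psme2, was at 459 and 392 CPM in treated mice, against 354 and 374 CPM in untreated mice (log2 fold change 0.31, SE 0.13, edgeR adjusted p 0.556) in CD8+ T cells. In plasmablasts, Pdia6, a disulfide isomerase, was at 115 and 100 CPM in treated mice, against 67.9 and 61.6 CPM in untreated mice (log2 fold change 0.77, SE 0.28, edgeR adjusted p 0.711), and Sec61b, a subunit of the protein channel into the endoplasmic reticulum, was at 200 and 225 CPM in treated mice, against 154 and 164 CPM in untreated mice (log2 fold change 0.44, SE 0.19, edgeR adjusted p 0.711). The genes given here by their treatment values were picked by the smallest unadjusted p of their list and type, so their sizes are those of the most extreme genes and not of the lists.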
